A study of Homo sapiens with 6 samples.

Results

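The 10 genes described here encode the route by which leukaemia inhibitory factor (LIF) and related cytokines signal through the shared receptor subunit gp130 to the transcription factor STAT3. They are the ligand LIF, the receptor subunits LIFR, OSMR, IL6R and IL6ST (gp130), the kinases JAK1 and JAK2, STAT3 itself, and the STAT3 target genes SOCS3 and PIM1. They were chosen by name from the 16279 genes of the deposited tables, and all 10 were among the 13311 genes that passed edgeR's filter on low counts. The study asked what chemerin, a hormone secreted by adipose tissue, does to endometrial epithelial cells. RNA was sequenced from 12Z cells, an established line of human endometriotic epithelium, and all 6 libraries come from this line. The Control group was left without treatment (n = 3), and the rhChemerin group received 10 ng/mL of recombinant human chemerin for 48 h (n = 3). The labels call the libraries of a group biological replicates and do not say whether they came from separate passages, so p-values measure the spread between these libraries.

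LIF binds LIFR, and the pair recruits gp130 into a signalling complex. Oncostatin M signals through gp130 with OSMR or LIFR, and interleukin 6 does so through IL6R and gp130. Kinases of the JAK family bound to the receptors phosphorylate STAT3, which then enters the nucleus and switches on its targets, among them the feedback inhibitor SOCS3 and the survival kinase PIM1. In the uterus, LIF signalling to STAT3 in the epithelium is known for its role in making the endometrium receptive to an embryo.

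Between 35430881 and 38341643 reads were counted on genes per library, so counting error was small for all members other than IL6R (92 to 336 counts) and JAK2 (169 to 262 counts). Replicate 3 of the rhChemerin group stood apart: 32.2% of the genes tested had their lowest library there and 34.1% their highest. Its TMM scaling factor was 0.898, against 0.973 to 1.05 in the other libraries. Across genes, which are no independent replicates, log2 CPM correlated at 0.960 to 0.985 within the rhChemerin group and at 0.983 to 0.990 within the Control group. Between the groups it correlated at 0.948 to 0.986. The highest of these values was for rhChemerin replicate 1 with Control replicate 1, above every pair within the rhChemerin group. No pair of libraries agreed within sampling noise (chi-square per gene of 13.6 to 230). The epithelial keratins KRT8, KRT18 and KRT19 were abundant, with means of 63447, 33682 and 15850 counts. The epithelial adhesion genes EPCAM and CDH1 averaged 22.3 and 38.5 counts, and the epithelial regulators GRHL2 and ESRP1 reached at most 5 and 8. Stromal genes were abundant in the same libraries, with a mean of 218022 counts for the collagen gene COL1A1. The summed FPKM of the 10 epithelial markers ran from 1597 to 1867 among Control libraries and from 1761 to 1977 among rhChemerin libraries, and the keratins carried the sum. Of the 8 epithelial markers tested, 4 had negative and 4 positive log2 fold changes. EPCAM, CDH1 and MUC1 were at -1.46, -1.14 and -0.57. Their adjusted p were 0.165, 0.188 and 0.135 with edgeR, and 0.115, 0.125 and 0.0363 with DESeq2. CLDN4 was at -0.70 (adjusted p = 0.364, edgeR). KRT8, KRT19, KRT18 and KRT7 were at 0.29, 0.27, 0.16 and 0.08 (adjusted p = 0.201, 0.209, 0.416 and 0.873, edgeR). The sum of the 8 stromal markers was 2593 to 2951 in the Control group and 3704 to 4378 in the rhChemerin group. Vimentin (VIM) alone went from a mean of 900 to 2352 (log2 fold change 1.54, adjusted p = 0.0752 with edgeR and 6.0e-06 with DESeq2). The other 7 together were at 1603 to 2070 and 1131 to 2197, which overlap. Of the 8 stromal markers, 6 had positive and 2 negative fold changes. PDGFRA was at 0.79 (adjusted p = 0.124 with edgeR and 0.0212 with DESeq2) and PDGFRB at -0.60 (adjusted p = 0.363, edgeR). The leukocyte sum was 122 to 172 FPKM in the Control group and 92.9 to 136 in the rhChemerin group. Most of it was CD68, with a mean of 97.0 and 95.6, and CD14, with 43.2 and 14.3 (log2 fold change -1.49, adjusted p = 0.1003 with edgeR and 5.1e-04 with DESeq2), while the leukocyte-wide gene PTPRC had at most 12 counts. The endothelial sum was 1.61 to 2.01 and 0.991 to 1.41, with VWF lower in rhChemerin (log2 fold change -1.97, adjusted p = 0.117 with edgeR and 0.0061 with DESeq2), KDR at a mean of 237 counts, and PECAM1 and TEK at no more than 10 and 1. No marker was at 0 in every library, and CD3E was not analysed here. Fewer cells of a type and less RNA per cell cannot be told apart in bulk RNA, and the part of these markers in the results below was not tested.

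The route was expressed from ligand to target in every library. Levels can be compared between genes only per length, and FPKM (fragments per unit of gene length and of library depth) is such a scale. Averaged over the 6 libraries, OSMR had the highest FPKM (61.5 ± 7.82, SD, n = 6), followed by JAK1 (58.1 ± 7.33), STAT3 (49.8 ± 8.37) and IL6ST (48.9 ± 5.21). The ranges of neighbours among these 4 overlapped. PIM1 (29.96 ± 6.59) and SOCS3 (19.4 ± 4.19) came next and overlapped each other, but every IL6ST value lay above every PIM1 value. LIF (9.36 ± 2.46) and LIFR (7.95 ± 1.93) overlapped and lay below SOCS3. IL6R (1.75 ± 0.864) and JAK2 (0.7999 ± 0.0960) were the lowest and overlapped. Within the complex for LIF, gp130 exceeded LIFR in each library, with a ratio of FPKM of 5.25 to 5.91 in the Control group and 5.14 to 10.8 in the rhChemerin group. OSMR exceeded LIFR by 6.59 to 7.91 times and 6.82 to 9.68 times. JAK1 exceeded JAK2 by 56.2 to 94.8 times and 63.2 to 86.5 times. None of these 3 ratios separated the groups (exact two-sided permutation tests, p = 0.50, 0.30 and 1).

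**Figure D1:**
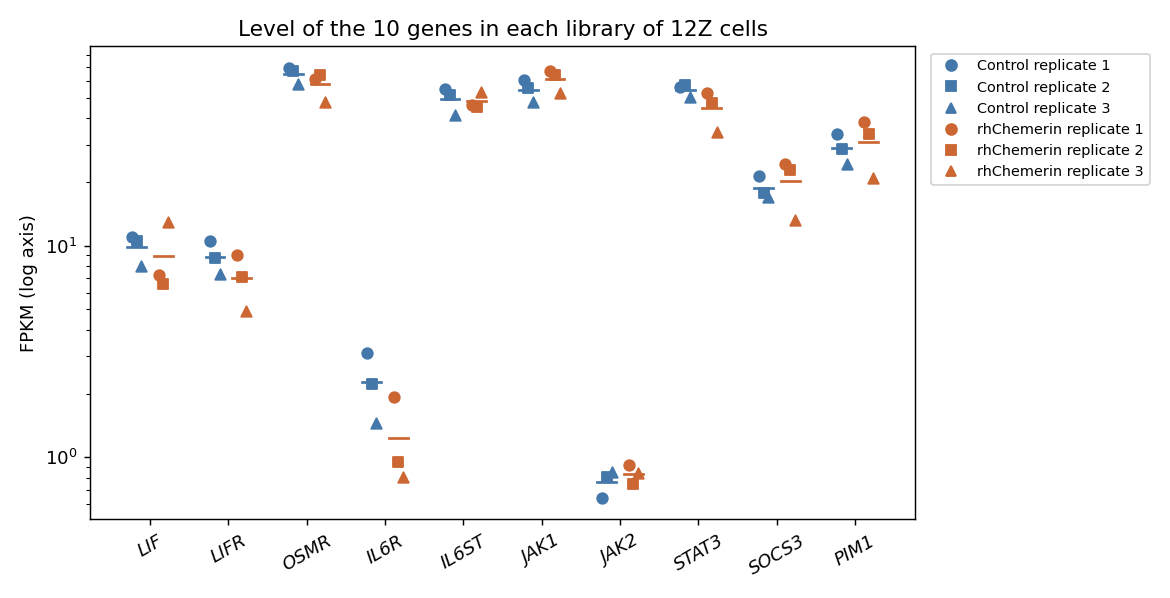
FPKM of the 10 genes on a log axis, with each point 1 library, the symbol giving the replicate number and the short line the mean of a group. OSMR, JAK1, STAT3 and IL6ST lie highest and IL6R and JAK2 lowest, and the Control and rhChemerin points overlap for every gene.

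STAT dimers recognise a palindrome of TTC and GAA with 3 bases between them, TTCNNNGAA. The RefSeq promoters of the members (GRCh38.p14, from 250 bases before to 50 bases after a start site) were searched for it and, as a choice made after that search, for spacings of 2 and 4 bases, TTCNNGAA and TTCNNNNGAA. All 3 are palindromes, so a match on either strand is a match on the other. Promoters were given for 9 of the 10 members, with 17 start sites, and LIF was not in the table. The pattern TTCNNNGAA was found in 2 of these 17 promoters, both of LIFR, and in 7.66% of all 35116 promoters. TTCNNGAA was found in 4 of the 17, those of IL6R, JAK1, STAT3 and SOCS3, against 7.74% of all, and TTCNNNNGAA in 0 of the 17, against 6.44% of all. OSMR, IL6ST, JAK2 and PIM1 held none of the 3 in these windows. The matches are shown because STAT3 acts through such sites, with the pattern in capitals. A match is a description of letters and not evidence of binding.
LIFR, chr5:38595522-38595610, minus strand: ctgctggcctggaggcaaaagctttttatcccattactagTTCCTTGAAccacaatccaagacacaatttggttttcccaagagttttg
LIFR, chr5:38557601-38557689, minus strand: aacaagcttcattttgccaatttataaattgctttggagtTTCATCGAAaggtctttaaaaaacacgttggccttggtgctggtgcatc
IL6R, chr1:154405093-154405142, plus strand: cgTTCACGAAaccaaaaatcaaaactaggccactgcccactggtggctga
JAK1, chr1:64966727-64966799, minus strand: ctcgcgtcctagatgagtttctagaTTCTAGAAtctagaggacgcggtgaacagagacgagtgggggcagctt
STAT3, chr17:42388526-42388613, minus strand: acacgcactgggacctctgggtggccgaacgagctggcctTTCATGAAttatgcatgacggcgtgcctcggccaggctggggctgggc
SOCS3, chr17:78361093-78361175, minus strand: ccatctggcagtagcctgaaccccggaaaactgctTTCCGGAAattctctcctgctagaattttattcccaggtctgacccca
The matches begin 165 and 182 bases before their LIFR start sites and 248 before that of IL6R. They begin 225 bases before a start site of JAK1, 131 before that of STAT3 and 215 before a start site of SOCS3. Other start sites of LIFR, JAK1 and SOCS3 had no match. The matched start sites of JAK1 (64966549) and SOCS3 (78360925) lie upstream of the gene positions given below, which end at 64966504 and 78360077.

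With edgeR's quasi-likelihood test, 0 of the 10 members passed an adjusted p of 0.05 between rhChemerin and Control, against 4 of the 13311 genes tested (0.0301%). DESeq2 called 0 of the 10 as well, against 1407 of 13309 genes (10.6%). Before adjustment, 1 member, JAK1, had a p under 0.05 with either tool, which is 1 in 10 against 22.8% of all genes tested with edgeR. JAK1 was also the only member whose groups did not overlap in TMM-scaled CPM (counts relative to the scaled library total), against 32.5% of all genes tested. The median log2 fold change of the members was 0.06 and that of all genes tested 0.01, and the medians of the absolute changes were 0.22 and 0.21. All fold changes below are of rhChemerin over Control from the edgeR fit, with 95% intervals.

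**Figure D2:**
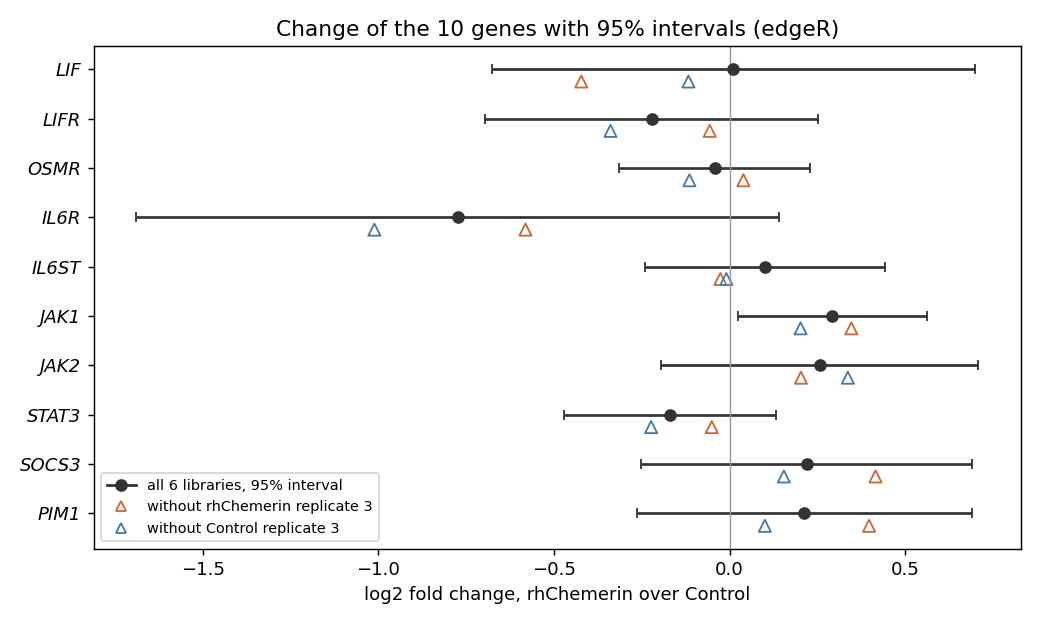
Log2 fold change of each member, rhChemerin over Control, with the 95% interval over all 6 libraries (filled circles) and the value with replicate 3 of either group left out (open triangles). The interval of JAK1 (0.02 to 0.56) excludes 0 and the other 9 include it, and the LIF value moves from 0.01 to -0.42 without rhChemerin replicate 3.

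LIF (Entrez gene 3976, chr22:30240447-30246851, minus strand, GENCODE release 29 on GRCh38, used for all gene positions here) is the cytokine at the head of the route. Its FPKM was 10.97, 10.5 and 7.99 in Control replicates 1 to 3 and 7.26, 6.57 and 12.9 in rhChemerin replicates 1 to 3. Replicates 1 and 2 of the treated group lay below all Control libraries and replicate 3 above all of them, so the groups overlapped at both ends. Group means were 9.81 ± 1.59 and 8.90 ± 3.46 (SD, n = 3), and an exact two-sided permutation test gave p = 0.80. On the log2 scale the fold change was 0.01 (-0.68 to 0.70, adjusted p = 0.985, edgeR). Without rhChemerin replicate 3 it was -0.42 (adjusted p = 0.130, edgeR) and without Control replicate 3 it was -0.12 (adjusted p = 0.864, edgeR), so the sign changed with either library. The spread of log2 CPM in the treated group was 0.60 (SD), against 0.25 in the Control group and a median of 0.21 over all genes tested in the treated group.

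LIFR (Entrez gene 3977, chr5:38474963-38608354, minus strand), the receptor subunit that gives LIF its specificity, had an FPKM of 10.5, 8.72 and 7.38 in the Control libraries, against 9.04, 7.11 and 4.93 in the rhChemerin libraries. Replicate 3 of the treated group was the lowest of the 6, and the other values interleaved. Its log2 fold change was -0.22 (-0.70 to 0.25, adjusted p = 0.526, edgeR), and without that library it was -0.06 (adjusted p = 0.860, edgeR). Leaving out rhChemerin replicate 1 instead gave -0.42 (adjusted p = 0.182, edgeR). OSMR (Entrez gene 9180, chr5:38845858-38945596, plus strand), which pairs with gp130 to bind oncostatin M, had an FPKM of 69.4, 67.3 and 58.4 in the Control libraries, against 61.7, 64.5 and 47.7 in the rhChemerin libraries. The groups overlapped, and the log2 fold change was -0.04 (-0.31 to 0.23, adjusted p = 0.844, edgeR), the narrowest interval but one among the members. It was 0.039 without rhChemerin replicate 3 and 0.014 without Control replicate 1.

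IL6R (Entrez gene 3570, chr1:154405193-154469450, plus strand), the subunit that binds interleukin 6, had an FPKM of 3.12, 2.23 and 1.46 in the Control libraries, against 1.92, 0.951 and 0.808 in the rhChemerin libraries. Replicates 2 and 3 of the treated group were below every Control library, and replicate 1 lay within the Control range. Its log2 fold change was the member set's farthest from 0, at -0.77 (-1.69 to 0.14, adjusted p = 0.278, edgeR), and stayed negative in all 15 alternatives, from -1.21 to -0.47. The value of -1.21 came without rhChemerin replicate 1 (adjusted p = 0.0793, edgeR). IL6ST (Entrez gene 3572, chr5:55935095-55994993, minus strand) encodes gp130 itself. Its FPKM was 55.3, 51.6 and 41.7 in the Control libraries, against 46.5, 45.4 and 53.1 in the rhChemerin libraries, with all treated values inside the Control range. In TMM-scaled CPM, rhChemerin replicate 3 was the highest library, at 537 against at most 484 in the Control group. The log2 fold change was 0.10 (-0.24 to 0.44, adjusted p = 0.697, edgeR). It was -0.026 without rhChemerin replicate 3, -0.0092 without Control replicate 3, and -0.035 with library size in place of TMM scaling, so its sign changed with these choices.

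Exons of some members lie opposite exons of other genes, and the strand setting of the counting is not given in the sources used here. LIFR shares 629 of 11864 exon bases with LIFR-AS1, IL6ST 797 of 9292 with AC008914.1, OSMR 229 of 7174 with RICTOR, and LIF 92 and 175 of 3969 with LIF-AS1 and AC004264.1. Reads from these stretches cannot be assigned to a strand here. IL6R and IL6ST each have a pseudogene elsewhere in the genome (IL6RP1 and IL6STP1) with which they could share reads.

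JAK1 (Entrez gene 3716, chr1:64833229-64966504, minus strand), the kinase that gp130 depends on most, had an FPKM of 60.8, 55.7 and 47.6 in the Control libraries, against 67.0, 64.5 and 53.0 in the rhChemerin libraries. On the TMM-scaled CPM scale, the highest Control library was at 326 and the lowest rhChemerin library at 328, so the groups did not overlap but nearly met. On the FPKM scale, which uses library size alone, rhChemerin replicate 3 lay below Control replicates 1 and 2. The log2 fold change was 0.29 (0.02 to 0.56, unadjusted p = 0.0363, adjusted p = 0.193, edgeR; a fold of 1.23, 1.02 to 1.48). The exact two-sided permutation test on FPKM gave p = 0.30. JAK1 was positive in all 15 alternatives (0.17 to 0.38, adjusted p 0.108 to 0.454). JAK2 (Entrez gene 3717, chr9:4984390-5128183, plus strand), a related kinase, had an FPKM of 0.642, 0.806 and 0.848 in the Control libraries, against 0.920, 0.746 and 0.839 in the rhChemerin libraries. The values interleaved, and the log2 fold change was 0.26 (-0.20 to 0.71, adjusted p = 0.443, edgeR).

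STAT3 (Entrez gene 6774, chr17:42313324-42388568, minus strand) had an FPKM of 56.2, 57.5 and 50.6 in the Control libraries, against 52.7, 47.2 and 34.5 in the rhChemerin libraries. Replicate 1 of the treated group lay within the Control range, replicate 2 just below it and replicate 3 far below. The group means were 54.7 ± 3.68 and 44.8 ± 9.33 (SD, n = 3; exact two-sided permutation test, p = 0.20). The log2 fold change was -0.17 (-0.47 to 0.13, adjusted p = 0.448, edgeR) and -0.05 without rhChemerin replicate 3. These values are of STAT3 RNA, and the activity of STAT3 depends on its phosphorylation, which RNA counts do not measure.

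SOCS3 (Entrez gene 9021, chr17:78356778-78360077, minus strand), an inhibitor that STAT3 induces and that blocks JAK at gp130, had an FPKM of 21.4, 17.7 and 17.0 in the Control libraries, against 24.4, 22.7 and 13.2 in the rhChemerin libraries. Replicates 1 and 2 of the treated group were above every Control library and replicate 3 below every one, the mirror image of LIF. The log2 fold change was 0.22 (-0.25 to 0.69, adjusted p = 0.529, edgeR) and 0.42 without rhChemerin replicate 3 (adjusted p = 0.0845, edgeR). Without rhChemerin replicate 1 it was 0.08 (adjusted p = 0.813, edgeR). PIM1 (Entrez gene 5292, chr6:37170203-37175426, plus strand), a kinase gene that STAT3 activates, split in the same way, with an FPKM of 33.9, 28.7 and 24.3 in the Control libraries, against 38.3, 33.8 and 20.8 in the rhChemerin libraries. Replicate 1 of the treated group was the highest of the 6, replicate 2 lay just below Control replicate 1, and replicate 3 was the lowest. The log2 fold change was 0.21 (-0.26 to 0.69, adjusted p = 0.547, edgeR) and 0.40 without rhChemerin replicate 3 (adjusted p = 0.136, edgeR). Without rhChemerin replicate 1 it was 0.06 (adjusted p = 0.868, edgeR).

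**Figure D3:**
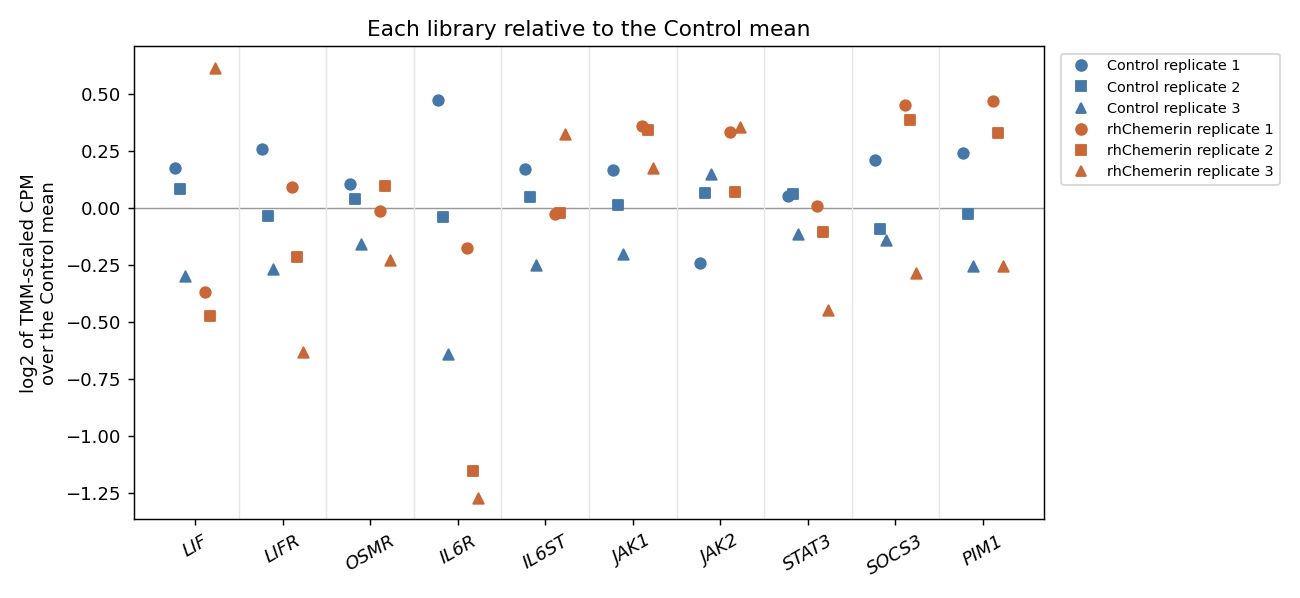
Log2 of TMM-scaled CPM in each library over the Control mean, for the 10 members, with 1 point per library. In rhChemerin replicate 3, LIF is 0.61 above the Control mean and SOCS3 0.28 and PIM1 0.25 below it, while replicates 1 and 2 lie on the other side of 0.

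Replicate 3 of the rhChemerin group was the lowest library for 5 of the 10 members in TMM-scaled CPM (LIFR, OSMR, IL6R, STAT3 and SOCS3) and the highest for 3 (LIF, IL6ST and JAK2), against 32.2% and 34.1% of all genes tested. Without it, 4 of the 10 members had an unadjusted p under 0.05, against 25.0% of all genes in that fit: LIF, with a negative fold change, and JAK1, SOCS3 and PIM1, with positive ones. None of these passed the adjusted threshold in that fit, in which edgeR called 415 genes (3.07%). Control replicate 3 lay below the Control mean for 9 of the 10 members, JAK2 being the exception. In 9 of the 10 members the SD of log2 CPM within the Control group exceeded 0.12, the median SD over all genes tested.

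The ratio of a target to STAT3 within a library does not depend on how libraries are scaled. These ratios were chosen after the values were seen. SOCS3 over STAT3 in FPKM was 0.382, 0.308 and 0.336 in the Control libraries, against 0.464, 0.481 and 0.383 in the rhChemerin libraries. The groups did not overlap, by a margin at the third digit in rhChemerin replicate 3. PIM1 over STAT3 was 0.603, 0.499 and 0.480 in the Control libraries, against 0.728, 0.715 and 0.604 in the rhChemerin libraries, again without overlap and with replicate 3 at the edge. An exact two-sided permutation test gave p = 0.10 for each, the smallest p that 3 libraries against 3 allow. Of all other genes tested, 20.3% had a ratio to STAT3 that was higher in rhChemerin without overlap.

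Over the 6 libraries, SOCS3 and PIM1 moved most alike among the 45 pairs of members (Pearson r of log2 CPM 0.975, Spearman rho 0.943). LIFR moved with STAT3 (r 0.927, rho 0.829) and with IL6R (r 0.904, rho 0.886), and LIF with IL6ST (r 0.839, rho 0.771). LIF and SOCS3 moved in opposite directions (r -0.69, rho -0.71). These are descriptions over 6 points that share the treatment and the distance of rhChemerin replicate 3, and many genes share such patterns. LIF had 37 genes with r above 0.95, SOCS3 57 and STAT3 428. The genes most like LIF were ACLY (r 0.999), an enzyme that makes acetyl-CoA for lipid synthesis, PPFIA1 (r 0.992) and RPAP3 (r 0.987). Those most like STAT3 were EFEMP2 (r 0.999), an extracellular matrix protein, KCTD7 (r 0.998) and NFIB (r 0.995), a transcription factor. Those most like SOCS3 were the linker histone H1-10 (r 0.998), CDCA7L (r 0.992) and LEPR (r 0.992), the leptin receptor.

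The other genes of the pathway were read from 6 lists that hold 79 different genes, members included, of which 72 were tested. With edgeR, 0 of the 72 passed the adjusted threshold. Before adjustment 8 had a p under 0.05 and were higher in rhChemerin and 3 were lower, against 1518 and 1520 of all 13311 genes. DESeq2 called 1 of the 72 higher, BIRC5, and 1 lower, IL27RA. Over all genes it called 609 higher and 798 lower, 10.6% of the 13309 tested. The median log2 fold change of the 72 was -0.02.

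Of the 7 gp130 cytokines tested, 5 had positive and 2 negative fold changes, with a median of 0.44, and 1 had an unadjusted p under 0.05. This was EBI3, the subunit that interleukin 27 and interleukin 35 share, which had 10, 97 and 78 counts in the Control libraries, against 10, 16 and 1 in the rhChemerin libraries. Control replicate 1 lay at the treated level, so the log2 fold change of -2.68 (SE 0.97, adjusted p = 0.172, edgeR) rests on the other Control libraries. CNTF, ciliary neurotrophic factor, had a log2 fold change of 0.64 (SE 0.31) and CLCF1, a cytokine that acts through the CNTF receptor, 0.44 (SE 0.29), with adjusted p of 0.262 and 0.389 (edgeR). IL6, interleukin 6, had 6, 12 and 13 counts in the Control libraries, against 3, 11 and 51 in the rhChemerin libraries. LIF therefore exceeded IL6 in FPKM in each library, by 37.6 to 110 times in the Control group and 16.0 to 157 times in the rhChemerin group. OSM, with at most 9 counts in a library, was too low to test, and IL27 was not analysed here.

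All 8 receptor genes were tested, and 2 had positive and 6 negative fold changes, with a median of -0.40. In 3 of the 8 the rhChemerin libraries all lay below the Control libraries in TMM-scaled CPM, against 16% of all genes tested. IL27RA, which pairs with gp130 to bind interleukin 27, had an FPKM of 8.19, 9.86 and 11.1 in the Control libraries, against 6.41, 5.96 and 5.49 in the rhChemerin libraries. Its groups did not overlap, and its log2 fold change was -0.58 (SE 0.13, adjusted p = 0.0944 with edgeR and 0.00488 with DESeq2). IL11RA, the interleukin 11 receptor, had 6.31, 6.9999 and 5.40 FPKM in the Control libraries, against 4.89, 4.03 and 1.52 in the rhChemerin libraries, without overlap (log2 fold change -0.73, SE 0.36, adjusted p = 0.270, edgeR). CNTFR, the receptor of CNTF, had 37, 40 and 34 counts in the Control libraries, against 31, 11 and 4 in the rhChemerin libraries, also without overlap (log2 fold change -1.22, SE 0.63, adjusted p = 0.288, edgeR).

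Of the 11 JAK and STAT genes, 3 had positive fold changes, JAK1, JAK2 and STAT6, and 8 negative ones, with a median of -0.17. STAT6, the factor activated by interleukin 4, had a log2 fold change of 0.22 (SE 0.11). STAT5B, which growth hormone and prolactin activate, was at -0.18 (SE 0.09) and the kinase TYK2 at -0.14 (SE 0.08). Their adjusted p were 0.265, 0.292 and 0.322 (edgeR). Of the 14 inhibitors tested, 4 had positive and 10 negative fold changes, with a median of -0.07. SOCS5, a relative of SOCS3, had 20.5, 18.8 and 21.2 FPKM in the Control libraries, against 14.4, 16.2 and 15.2 in the rhChemerin libraries, without overlap (log2 fold change -0.27, SE 0.10, adjusted p = 0.173, edgeR). PTPN1, a phosphatase that acts on JAK2 and TYK2, had 38.8, 37.1 and 38.6 FPKM against 42.6, 38.3 and 39.9, overlapping on this scale (log2 fold change 0.21, SE 0.08, adjusted p = 0.191, edgeR). PIAS4, a SUMO ligase, was at 0.20 (SE 0.10) and CISH, a target of STAT5, at -0.88 (SE 0.46), with adjusted p of 0.267 and 0.292 (edgeR). PTPN6, with at most 10 counts, was not tested.

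Of the 21 STAT3 target genes tested, 12 had positive and 9 negative fold changes, with a median of 0.05. In 3 the rhChemerin libraries all lay above the Control libraries in TMM-scaled CPM, and in 3 all lay below. Over all 13311 genes tested these counts were 2201 and 2131. The 4 described next had an unadjusted p under 0.05 (edgeR), all higher in rhChemerin. Over all genes tested, 1518 were higher and 1520 lower at that threshold. BIRC5, the gene of the cell-division and survival protein survivin, had an FPKM of 40.8, 35.2 and 38.5 in the Control libraries, against 47.5, 46.0 and 46.7 in the rhChemerin libraries. Its groups did not overlap, with a log2 fold change of 0.42 (SE 0.09, adjusted p = 0.0892 with edgeR and 0.00471 with DESeq2). MYC, a growth regulator, had 24.7, 20.7 and 25.6 FPKM in the Control libraries, against 24.4, 31.3 and 43.2 in the rhChemerin libraries (log2 fold change 0.63, SE 0.23, adjusted p = 0.178, edgeR). MCL1, which protects cells from apoptosis, had 60.8, 63.9 and 61.5 against 61.1, 76.0 and 99.3 (0.49, SE 0.20, adjusted p = 0.203, edgeR). TIMP1, an inhibitor of matrix metalloproteinases, had 228, 257 and 316 against 246, 404 and 421 (0.56, SE 0.24, adjusted p = 0.216, edgeR). In these 3 genes replicate 1 of the treated group lay at the Control level and replicates 2 and 3 above it, unlike SOCS3 and PIM1, which were high in replicates 1 and 2. Without rhChemerin replicate 1, edgeR called MYC, MCL1 and TIMP1, in a fit in which it called 844 genes (6.24%). The acute-phase targets A2M, FGB and SERPINA3, with at most 2, 9 and 4 counts, were not tested.

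All 12 genes of the other gp130 outputs, the SHP2, ERK, PI3 kinase and YAP branches, were tested, and 10 had positive and 2 negative fold changes, with a median of 0.12. PIK3CA, the catalytic subunit of PI3 kinase, had 8.24, 7.53 and 6.65 FPKM in the Control libraries, against 9.13, 8.84 and 7.15 in the rhChemerin libraries, which overlap (log2 fold change 0.29, SE 0.12, adjusted p = 0.201, edgeR). The adaptor GRB2 was at 0.18 (SE 0.09) and the coactivator YAP1 at 0.15 (SE 0.08), with adjusted p of 0.298 and 0.302 (edgeR). Library size in place of TMM moved the median of all genes tested from 0.01 to -0.12, a shift to set beside changes of this size.

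**Figure D4:**
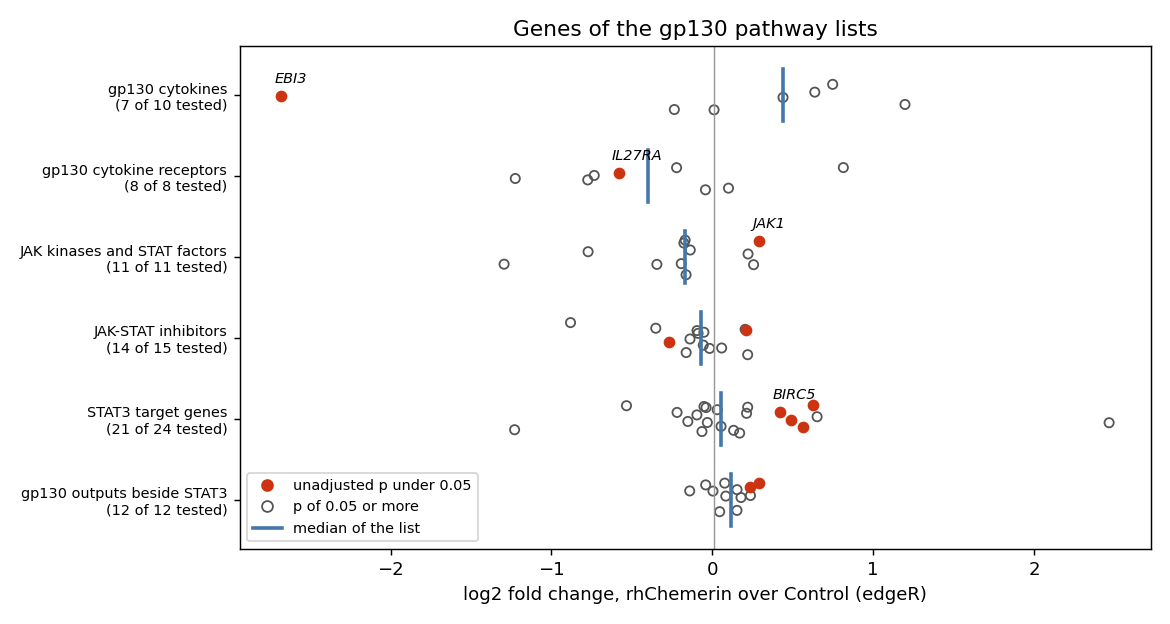
Log2 fold change, rhChemerin over Control, of each tested gene in the 6 pathway lists (points, with random vertical offset), with filled points for an unadjusted p under 0.05 and a bar for the median of each list. The grey line is the median of all genes tested (0.01), the receptor list has the lowest median (-0.40) and the cytokine list the highest (0.44).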

How the data were processed

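Per the study's methods and the submitters' processing notes, reads from 6 libraries of 12Z cells were cleaned with fastp, aligned to GRCh38.p13 with HISAT2 and counted with HTSeq. The authors deposited raw counts per gene and, in a second table, FPKM values. How strand was set in counting, and which annotation release was used, is not given in the sources used here. All 76321 FPKM values with at least 20 counts were within 0.1% of the count over a constant length and the library total. Genes were tested with edgeR 4.0.16 in R 4.3.3 (TMM, filter on low counts by group, quasi-likelihood test, Benjamini-Hochberg adjustment over all genes tested), which was also tested on simulated data. The alternatives tried were limma 3.58.1 on FPKM with a pseudocount of 1 or 0.1 before taking log2, DESeq2 1.42.0, other scalings and filters, a replicate block, each library left out and, added after the data were seen, edgeR with legacy=FALSE. Sequences come from RefSeq. The members and lists were chosen with earlier results of these data known. Named are all members, list genes with an adjusted p under 0.05 with edgeR or DESeq2 and otherwise up to 4 per list by the smallest edgeR p, and the 3 genes most like LIF, STAT3 and SOCS3 by Pearson r of log2 CPM (prior count 2). Some list genes are not reported here. Intervals cover the spread between libraries of this line only. With 3 libraries per group, an exact permutation test cannot go below p = 0.10.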

Additional observations from a re-analysis of the deposited data

How the results depend on the processing

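No member passed the adjusted threshold in any of the 15 alternatives. LIFR, IL6R, JAK1, JAK2, STAT3, SOCS3 and PIM1 kept their sign in all of them. LIF was at -0.14 with library size only, -0.17 and -0.19 with limma on log2(FPKM + 1) and log2(FPKM + 0.1), and -0.069 with the replicate block. IL6ST was at -0.035, -0.028 and -0.028 in the first 3 of these. With each library left out, LIF ranged from -0.42 (without rhChemerin replicate 3) to 0.19, IL6ST from -0.026 to 0.20 and OSMR from -0.12 to 0.039. The count of members with an unadjusted p under 0.05 was 1 in the main analysis, 0 with library size only and with both limma settings, and 0 to 4 with each library left out (0 without Control replicate 2 or rhChemerin replicate 2, 4 without rhChemerin replicate 3, against 12.4%, 16.2% and 25.0% of all genes). The count of members whose groups did not overlap was 1, 0 on the FPKM as deposited and with library size only, and 1 to 4 with each library left out (4 without Control replicate 3 or rhChemerin replicate 3, against 42.9% and 44.1% of all genes). List genes called were 0, 2 with DESeq2 (against 10.6% of all genes), and 0 to 3 with each library left out (3 without rhChemerin replicate 1, against 6.24% of all genes). Whether the replicate numbers pair the libraries cannot be decided from 3 libraries per group. Deviations from the group mean correlated at 0.241, 0.00147 and 0.247 for the same number (replicates 1 to 3). For different numbers they correlated at -0.306 to 0.106, and Control replicate 2 correlated best with rhChemerin replicate 1 (0.106). The fit with the replicate block had 3 members with an unadjusted p under 0.05 (LIFR, IL6R and JAK1), against 25.3% of all genes, and called 1 gene of all tested. Over all genes edgeR called 4, and 0 without any of the Control libraries or rhChemerin replicate 2, 844 without rhChemerin replicate 1, 415 without rhChemerin replicate 3, 17 with no filter, 15 with legacy=FALSE, and limma 179 and 23. The causes were not tested.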
